A study of Mus musculus with 12 samples.

Results

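Plagl1 (also called Zac1) encodes a zinc finger transcription factor that restrains cell division and is active in the developing heart. It is imprinted: the maternal copy carries DNA methylation at the promoter, set in the egg, and the paternal copy is unmethylated and transcribed. The same promoter region serves Hymai, a non-coding RNA. Because the 2 copies differ, tissue DNA gives an intermediate methylation level at an imprinted promoter. In these data the level also differed between cytosines of the promoter, so it is not read as an exact share of methylated copies.

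Every position of the deposited methylation table inside Plagl1 or within 20 kb of it was taken, which gave 14 of the 421177 cytosines listed. They lie on mouse chromosome 10 (mm10, equal to GRCm38), where RefSeq places Plagl1 at 13090832 to 13131694. A core of 12 cytosines lies from 209 to 18 bp before the annotated start of the gene. The 2 others lie inside the gene at 13108429 and 13117080. The gene table gives no exons, so exon or intron cannot be stated for them. The core was singled out because its mean level differed between the maternal diets in these same data. The diet values below therefore describe the choice. Counts of Plagl1 sites from the fit across all sites are given beside the share over all sites, and nothing about diet is concluded from them.

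The mice were 12 wild-type FVB/N offspring aged 3 weeks, and the DNA came from the left ventricle. Their mothers received a high-fat diet (HFD, Teklad TD.06415) or a regular diet (RD, PicoLab 5L0D) from 6 weeks of age, and were bred after 8 weeks of it to fathers fed RD. Of the HFD offspring 3 were female and 3 male, and of the RD offspring 4 were female and 2 male. The number of mothers is not given, so litter mates cannot be told from unrelated mice, and p-values measure the spread between these mice. Reduced representation bisulfite sequencing was used: MspI cuts DNA at CCGG, and bisulfite conversion leaves methylated cytosines readable as C. Each library had 385299 to 417081 positions with a value, and the mean of complete autosomal positions was 37.5 to 38.9%. HFD libraries carry the numbers 2 to 8 in the labels and RD libraries 9 to 14, so the order of the libraries and the mother's diet cannot be told apart.

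The promoter sequence shows what the core is. The 250 bases before the annotated start, chr10:13090582-13090831 on the plus strand of GRCm38.p6 from RefSeq, are printed with the CpG dinucleotides that the table lists in capitals.
Plagl1 promoter: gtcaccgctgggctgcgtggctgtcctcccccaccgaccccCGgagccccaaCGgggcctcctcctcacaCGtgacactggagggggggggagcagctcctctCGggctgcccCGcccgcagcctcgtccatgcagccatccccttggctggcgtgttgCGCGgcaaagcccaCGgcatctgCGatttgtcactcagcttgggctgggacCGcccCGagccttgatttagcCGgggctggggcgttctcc

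CCGG occurs 2 times in these 250 bases, at 13090622 to 13090625 and at 13090812 to 13090815. All 12 core cytosines fall between or within those sites, so the reference predicts a single MspI fragment that carries them all. The first 5 listed positions, 209 to 137 bp before the start, are the C of a CpG on the plus strand. The last 7, 90 to 18 bp before the start, are the G of a CpG in this sequence, which places the cytosine on the minus strand. The core is thus 2 stretches on opposite strands, 1 next to each end of the fragment, with 47 bp between them. No CpG of the core was listed on both strands. The fragment holds 15 CpGs, and the 3 that are not listed lie in the middle, at 13090699, 13090707 and 13090734. Neighbouring cytosines on a strand are read by the same reads, so the 12 values of a mouse are not 12 independent measurements. The reference is C57BL/6J and the mice were FVB/N; sequence differences between the strains were not examined.

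The letters TGCCGC, to which the imprint-keeping zinc finger protein Zfp57 binds when the CpG is methylated, were searched on both strands of the 250 bases. They occur 1 time, on the minus strand at 13090742 to 13090747. That match contains the cytosine of its CpG, measured at 13090744, and ends on the cytosine measured at 13090742. Of 32851 RefSeq promoters, 8.68% hold these letters in the same stretch. The Plagl1 stretch holds 19 CpGs, where the median promoter holds 6, and 19.7% of promoters hold at least as many.

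The core was intermediately methylated in every mouse. Its mean over the 12 cytosines was 59.5% ± 9.19 (SD, n = 12 mice), and the mice ran from 44.3 to 76.3%. The 12 sites split by strand. Plus-strand sites had means of 67.4 to 71.8% over the 12 mice, and minus-strand sites had means of 51.2 to 54.4%. Within a mouse, the highest and the lowest of the 7 minus-strand sites differed by a median of 5.33 points, with 14.1 points at most in HFD male 4. Over the 5 plus-strand sites the median was 10.3 points. There the spread averaged 7.66 points in HFD and 13.9 points in RD, with 20.1 points at most in RD female 1. The step came between positions 13090695, with a mean of 68.3%, and 13090742, with a mean of 51.2%.

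**Figure D1:**
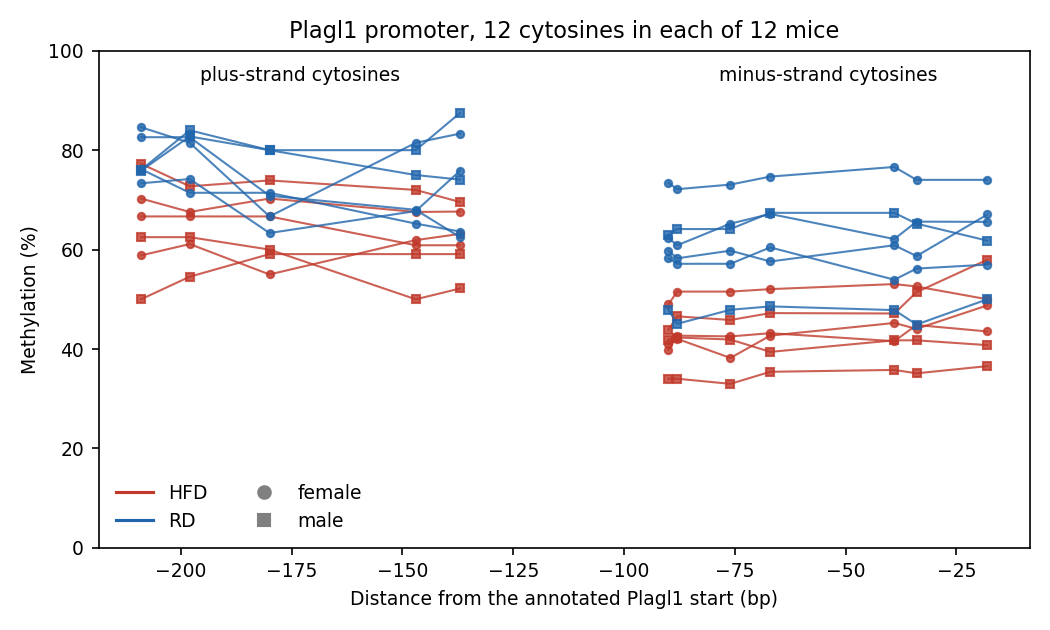
Methylation in percent (y axis) of the 12 core cytosines against their distance in bp from the annotated Plagl1 start (x axis), with 1 line per mouse and strand, coloured by maternal diet and with a symbol for sex. Mean levels are lower on the minus strand, and the HFD lines lie mostly below the RD lines, with overlap at every site.

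The 2 stretches of the fragment did not have the same level. They differ in strand and in position at once, since no CpG was measured on both strands, so strand and end of the fragment cannot be told apart. Averaged per mouse, the plus-strand cytosines had 69.4% ± 8.39 and the minus-strand cytosines 52.5% ± 11.6 (SD, n = 12). The plus strand was higher in 12 of 12 mice, by 16.9 points ± 9.93. An exact sign-flip permutation test over the 12 mice (two-sided, 4096 arrangements) gave p = 0.000488, the smallest that the design allows. The test was prompted by this gap and so restates what was seen; it does not use the maternal diet. The gap was not constant. It was lowest at 5.51 points in RD female 2, had a median of 12.9 points and was highest at 34.0 points in RD male 2, followed by HFD male 2 at 31.7 points.

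Among mice of the same diet, no relation between the strands was detected. Across the 6 HFD mice Pearson's r was -0.189 (exact permutation p = 0.696) and Spearman's rho was -0.314 (exact permutation p = 0.564). Across the 6 RD mice r was -0.0532 (exact permutation p = 0.921) and rho was 0.0857 (exact permutation p = 0.919). Leaving out the 2 mice farthest from the median of the plus strand gave r = 0.0513 in HFD and 0.737 in RD. These are 2 of 6 relations computed, and the Benjamini-Hochberg adjusted p-values of r were 0.921 for both. The other 4 set the core against the mean of autosomal sites, or of those at 20 to 80%, in each diet, and their r ran from -0.600 to 0.283 with exact permutation p-values of at least 0.206. With 6 mice, only a strong relation could have passed.

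**Figure D2:**
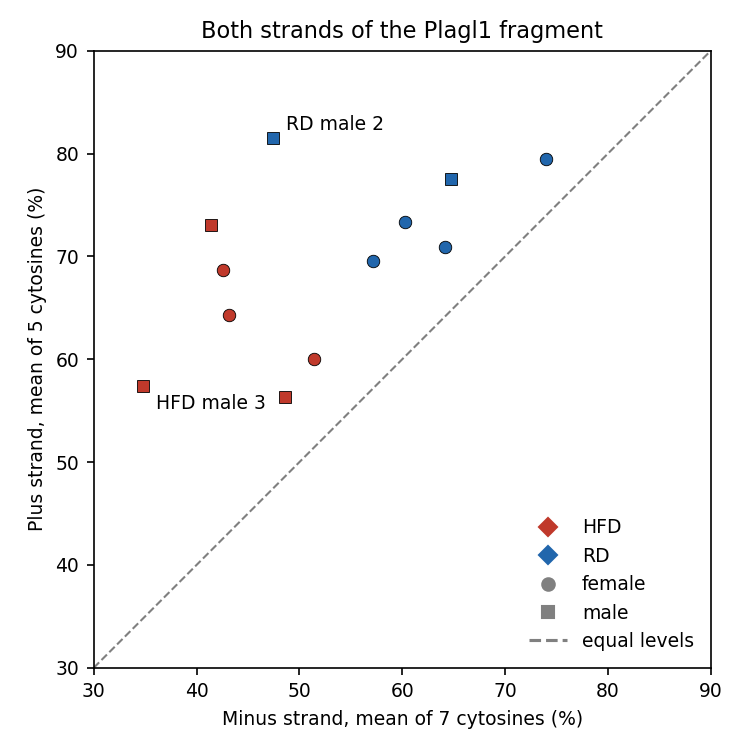
Mean of the 5 plus-strand cytosines (y axis, percent) against the mean of the 7 minus-strand cytosines (x axis, percent), with 1 point per mouse and a dashed line of equal levels. All 12 points lie above the line, and RD male 2 lies farthest from it, at 81.5% and 47.5%.

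Gaps of this size were present at a few other promoters. In the RefSeq promoter sequences, 558 autosomal promoters had at least 3 complete sites on both strands, and 12 of them had a mean level of 20 to 80%. The median gap of those 12, Plagl1 included, was 7.82 points in either direction. In this order Plagl1 came after Mfsd6l with 19.3 points and Gm13420 with 17.0 points, and just before Myo1h with 16.8 points. In each of these 4 promoters the gap had the same sign in 12 of 12 mice. Commd1, whose promoter stretch holds part of the imprinted Zrsr1 region, had a gap of 7.36 points. These names were picked for their rank after the values were seen.

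By maternal diet, the core averaged 67.2% ± 5.44 in the RD mice and 51.8% ± 3.94 in the HFD mice (SD, n = 6 each), a difference of -15.3 points. The HFD mice had a lowest value of 44.3%, a median of 52.7% and a highest value of 55.0%. The RD mice had a lowest value of 61.6%, a median of 66.3% and a highest value of 76.3%. The 2 diets did not overlap, with 6.66 points between HFD female 2 and RD male 2. Among all gene-end windows tested, 0.408% had every HFD mouse below every RD mouse, and nothing is read from this, since the core was chosen on this contrast. HFD male 3 had the lowest core level, with 57.4% on the plus strand and 34.8% on the minus strand. RD female 2 had the highest, with 79.5% and 74.0%.

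**Figure D3:**
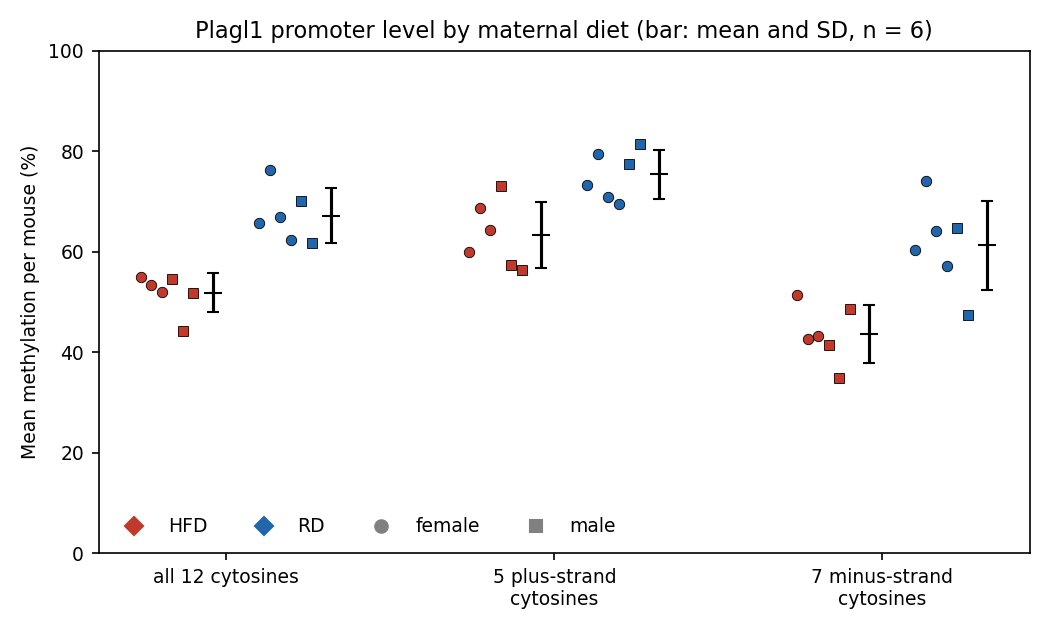
Mean methylation per mouse in percent (y axis) over all 12 core cytosines, the 5 of the plus strand and the 7 of the minus strand, by maternal diet, with a symbol for sex and bars for mean and SD (n = 6). The diets separate for the mean of all 12 cytosines, while each strand alone has overlapping diets.

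Each strand alone had overlapping diets, and so did the median over the 12 sites. On the plus strand the levels were 63.3% ± 6.62 in HFD and 75.4% ± 4.84 in RD, and 5 of 6 HFD mice lay below the lowest RD mouse. HFD male 2, at 73.1%, lay among the RD values of 69.6 to 81.5%. On the minus strand the levels were 43.7% ± 5.80 and 61.3% ± 8.84, and 4 of 6 HFD mice lay below the lowest RD mouse. Here it was RD male 2, at 47.5%, that lay among the HFD values of 34.8 to 51.4%. RD male 2 was thus the highest of all 12 mice on the plus strand and the lowest RD mouse on the minus strand. The mean of the strand means, which weights the strands equally, kept the diets apart, at 46.1 to 57.2% in HFD and 63.4 to 76.8% in RD.

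Site by site, the HFD mean was lower at 12 of 12 core sites, by 7.89 to 19.3 points, with a median of -16.1 points. Over all 157523 sites tested, 52.9% were lower in HFD and the median difference was -0.259 points. At sites with a mean level of 20 to 80%, 56% were lower and the median was -0.761 points. The mean over those sites also had no overlap between the diets, at 55.2 to 55.95% in the HFD mice and 55.997 to 57.6% in the RD mice. Its part in the core difference was not tested. The largest differences were at minus-strand sites. At 13090765, 67 bp before the start, HFD mice had 35.4 to 52.0% with a median of 42.9%, and RD mice had 48.6 to 74.7% with a median of 63.8%. At 13090742, at the edge of the TGCCGC match, the ranges were 34.0 to 49.0% in HFD and 47.9 to 73.4% in RD, and 5 of 6 HFD mice lay below the lowest RD mouse. The site inside the match, 13090744, had 34.0 to 51.5% in HFD and 45.1 to 72.2% in RD.

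Among plus-strand sites, 13090634 had the largest difference, with 64.2% ± 6.26 in HFD and 79.4% ± 5.25 in RD (SD, n = 6 each). The smallest difference was at 13090652, with 64.2% ± 7.29 in HFD and 72.0% ± 6.83 in RD, where 3 of 6 HFD mice lay below the lowest RD mouse. At the outermost site, 209 bp before the start and inside the CCGG cut site itself, HFD mice had 50 to 77.3% and RD mice 73.3 to 84.6%. At the opposite end, 18 bp before the start, HFD mice had 36.6 to 58.0% and RD mice 50 to 74.0%.

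Not one of the 12 core sites had non-overlapping diets, where 0.335% of all tested sites had every HFD mouse below every RD mouse. In the limma fit across all sites, 0 of the 13 complete Plagl1 sites were called for diet (adjusted p under 0.05). The background was 0.0102% of all sites. At an unadjusted limma p-value under 0.05 were 11 of the 13, against 6.53% of all sites. Nothing is read from this share, since the core was chosen on this contrast. The diets were apart in the mean over the fragment and overlapped at each single cytosine.

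The 2 cytosines inside the gene had overlapping diets and no lower mean in HFD. At 13117080, 26248 bp after the start, the level was 27.8% ± 3.71 in HFD and 27.1% ± 3.01 in RD (SD, n = 6 each). All 12 mice lay between 22.9 and 34.2% there, the narrowest range of the 14 sites. At 13108429, 17597 bp after the start, 10 mice had a value, and HFD female 2 and RD female 3 had none. The 5 HFD mice with a value had 61.5 to 83.3% and the 5 RD mice 40.0 to 87.0%. The means were 71.7% ± 7.84 and 63.9% ± 18.1 (SD, n = 5 each), with RD male 1 lowest. Beyond the 20 kb limit, the nearest listed site before the gene was 29.9 kb away at 13060943, with a mean of 25.9%. The nearest after it was 60.5 kb away at 13192153, with a mean of 93.3%. The table therefore samples Plagl1 almost only at the promoter fragment.

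Sex was not used in choosing the core and was tested. Core levels were 53.5% ± 1.503 in HFD females (SD, n = 3), 50.2% ± 5.36 in HFD males (SD, n = 3), 67.8% ± 5.98 in RD females (SD, n = 4) and 65.8% ± 5.95 in RD males (SD, n = 2). Ordered by level, HFD males and HFD females overlapped, and so did RD males and RD females. Averaged over the diets, females were 2.61 points higher, by 3.24 points in HFD and 1.97 points in RD. The exact permutation test with sex labels moved within diets gave p = 0.397 (two-sided, 300 arrangements). The difference of the diet effects between females and males was 1.26 points, with p = 0.820 in the exact permutation test of the same kind. Neither test detected a difference, with 2 to 4 mice in each group of diet and sex.

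Averaged over the diets, the strands leaned in different directions by sex without passing the test. On the minus strand females were 5.95 points higher (exact permutation p = 0.203), from 4.10 points in HFD and 7.81 points in RD. On the plus strand females were 2.08 points lower (exact permutation p = 0.573), from 2.04 points in HFD and -6.19 points in RD. Pooled over the diets, the plus-strand means were 69.5% in the 7 females and 69.2% in the 5 males. In HFD both strands were higher in females. The gap between the strands differed by -8.03 points (female minus male, averaged over the diets), with means of 13.4 points in the 7 females and 21.8 points in the 5 males (exact permutation p = 0.187). This difference was -2.06 points in HFD and -14.0 points in RD. There were 2 RD males, of which RD male 2 had a gap of 34.0 points. Over the 8 tests of sex and of the diet effect by sex, the smallest Benjamini-Hochberg adjusted p was 0.587. At single sites, limma called 0 of 13 Plagl1 sites for sex, against 0% of all 157523 sites, and 0 of 13 had an unadjusted p-value under 0.05, against 5.3% of all sites. For the diet-by-sex interaction limma likewise called 0 of 13, against 0% of all sites, and 0 of 13 had an unadjusted p-value under 0.05, against 5.11%. The site at 13108429, fitted with missing values allowed, had an unadjusted limma interaction p of 0.00907 (limma adjusted p = 0.869). In that fit 11484 of 212715 sites had an unadjusted limma interaction p under 0.05. The value at 13108429 rests on 10 mice.

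Plagl1 was compared with the 2 maternally methylated promoter windows set beside it. Peg10 is a paternally expressed gene derived from a retrotransposon, and its window, shared with Sgce, holds 13 sites at chromosome 6, 4747355 to 4747490. Zrsr1 is a paternally expressed retrogene within Commd1, and its window holds 42 sites at chromosome 11, 22971999 to 22972993. Mest was also planned for this comparison and had no window of 3 complete sites. In the same mouse the Plagl1 core lay below Zrsr1 in 11 of 12 mice, by a mean of 6.96 points ± 4.77. The exact sign-flip permutation test gave p = 0.000977 (two-sided; 0.00195 after Benjamini-Hochberg adjustment over the 2 comparisons). The core lay below Peg10 in 9 of 12 mice, by 3.66 points ± 6.03 (exact sign-flip permutation p = 0.0474, the same after adjustment). The core stretches differed here, since the plus-strand mean of 69.4% lay above both the Peg10 mean of 63.2% and the Zrsr1 mean of 66.5%, and the minus-strand mean of 52.5% lay below both. With the median over sites in place of the mean, the core lay 12.4 points below Zrsr1 (exact permutation p = 0.000488) and 11.7 points below Peg10 (exact permutation p = 0.00488). The call for Peg10 was lost with equal weight on the strands (2.25 points, exact permutation p = 0.222). It was also lost when any 1 mouse other than RD female 1, RD female 2 or RD male 1 was left out, with 2.40 points without RD male 2 (exact permutation p = 0.0947).

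**Figure D4:**
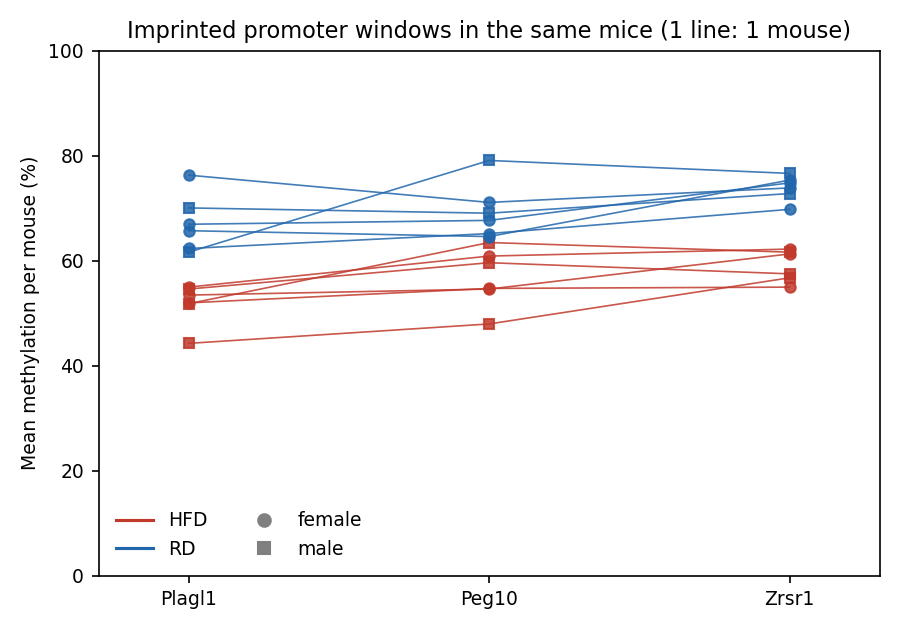
Mean methylation per mouse in percent (y axis) in the Plagl1 core and the windows of Peg10 and Zrsr1, with 1 line per mouse, coloured by maternal diet and with a symbol for sex. The Plagl1 end of the line is below the Zrsr1 end in 11 of 12 mice, and the HFD lines lie below the RD lines in all 3 windows.

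The maternal diets did not overlap in these windows either, where 0.408% of all windows tested had every HFD mouse below every RD mouse. Limma did not call the Peg10 window between the diets (limma adjusted p = 0.277). Both windows were chosen with earlier results of these data known. Peg10 had 56.9% ± 5.59 in HFD and 69.5% ± 5.31 in RD, and Zrsr1 had 59.1% ± 3.04 and 73.9% ± 2.39 (SD, n = 6 each). After subtraction of each diet's mean, the correlation of the Plagl1 core with Peg10 was 0.280 and with Zrsr1 0.194 over the 12 mice, as a description. HFD male 3 was the lowest of 12 in the core and in Peg10, at 48.0%, and next to the lowest in Zrsr1, at 56.7%, where HFD female 4 was lowest at 55.0%. RD male 2 was the lowest RD mouse in the core and the highest in Peg10, at 79.1%.

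The windows most like the core in pattern were taken from 4169 gene-end windows with no core site, by Pearson's r over the 12 mice. The highest were the window of Naa11 and 4930467D21Rik on chromosome 5 (r = 0.900), that of Gm12224 on chromosome 11 (r = 0.886) and that of Ppp1r15b on chromosome 1 (r = 0.858). Naa11 had 93.1% ± 0.677 in HFD and 95.5% ± 1.11 in RD, and Ppp1r15b had 5.64% ± 1.58 and 27.3% ± 15.8 (SD, n = 6 each). After subtraction of the diet means the highest were Eif2b3 (r = 0.885), Gm44570 (r = 0.839) and Gm12224 (r = 0.834). All are the top of a long list over 12 points that share library and depth, so they describe these mice.

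Of 14 genes with maternally methylated imprinted regions, 10 had windows, 11 in all. The windows lie at gene ends, and whether each covers the imprinted region of its gene was not checked. Those of Inpp5f and Grb10 had mean levels of 2.69 and 4.34%. In HFD 7 of the 11 were lower and 4 higher, with a median of -0.876 points. Of all 11524 windows 5282 were lower, and the median was 0.0925 points. The 9 with a mean level within 5 to 95% had a median of -9.02 points, against -0.109 points over all windows tested. The median of -9.02 points is the value of the Igf2r window. Of these 9, limma called 2 between the diets, both lower in HFD, against 0.12% of all windows tested. Peg13 was called in 12 of 12 fits without 1 mouse, with adjusted limma p-values up to 0.00804. Zrsr1 was lost without HFD female 4 (limma adjusted p = 0.0535) and without RD male 2 (limma adjusted p = 0.0680), and with windows of 500 bp on each side (limma adjusted p = 0.227). The 2 largest differences were at Peg13, with 59.6% ± 4.25 in HFD and 81.6% ± 2.22 in RD, and at Zrsr1. Direction was not shared by the whole list, since Gnas had 39.6% ± 3.01 in HFD and 32.5% ± 3.47 in RD, and Nap1l5 had 53.3% ± 9.69 and 46.4% ± 9.33 (SD, n = 6 each), both with overlapping diets. None of the 9 windows was called for sex, against 0.0959% of all windows tested. With earlier results known, this list supports nothing about Plagl1.

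The genes tied to Plagl1 by function were thinly covered. Of 10 imprinted genes described as a network with Plagl1, H19, Grb10, Igf2r and Gnas had a window, 3 were tested, and limma called 0 for diet, against 0.12% of all windows tested, and 0 for sex, against 0.0959%. The growth factor receptor gene Igf2r had 58.4% ± 4.34 in HFD and 67.4% ± 4.89 in RD, and H19 had 76.7% ± 2.64 and 75.5% ± 1.87 (SD, n = 6 each). Of the family members Plag1 and Plagl2, only Plag1 had a window, at 1.48% ± 0.406 and 1.24% ± 1.31. Among 5 targets and partners only the cardiac factor Nkx2-5 had windows, 2 of them, at mean levels of 2.22 and 7.09%. Of 6 genes that keep imprinted methylation, Uhrf1 and Zfp445 had windows, at mean levels of 1.27 and 1.10%, too low to be tested.

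Markers of cell types could be read only in part. Cardiomyocyte markers had windows at 3 of 5 genes, Myh6, Tnnt2 and Ryr2, with diet differences of -3.81 to 1.26 points. The Myh6 window is shared with Cmtm5, and that of Ryr2, at a mean level of 2.29%, was too low to be tested. A window may lie at either end of its gene and need not be a promoter. Endothelial markers had a window at 1 of 5, Esam, with 19.5% ± 3.82 in HFD and 35.0% ± 3.61 in RD (SD, n = 6 each), 15.4 points lower and without overlap, as in 0.408% of all windows tested. Limma called it (adjusted p = 0.0300), against 0.12% of all windows tested, but only in 3 of 12 fits without 1 mouse. The adjusted limma p was highest, at 0.119, without HFD female 4, and the call held without HFD female 3, HFD male 3 or RD female 4. Fibroblast and blood markers had windows at 0 of 4 genes each. Whether the makeup of the tissue moves with the Plagl1 level was not tested.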

How the data were processed

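CpG methylation was measured by RRBS in the left ventricle of 12 mice. The authors deposited 1 table of percent methylation per position and mouse, per the file headers. FastQC, Trim Galore, Bismark 0.19, limma and the build mm10 are named in the submitters' processing notes. Coverage minimum and strand handling are not given in the sources used here. No read counts accompany the percent values, so depth is unknown, no interval can be given and rates were tested in place of counts.

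All 12 columns matched 1 sample each (unmatched columns: 0). Strands came from the RefSeq GRCm38.p6 promoter sequences, where 43429 of 43437 listed positions fell on a CpG. Rates as fractions were turned into log2((rate + 0.05)/(1 − rate + 0.05)) and fitted with limma 3.58.1 (R 4.3.3), with diet and sex, over 157523 complete autosomal sites of mean rate 5 to 95%, with Benjamini-Hochberg adjustment and a threshold of 0.05. Windows covered 1000 bp on each side of gene ends, with at least 3 complete sites. Single values used exact permutation tests (Python 3.11.15). On simulated rates at 157523 sites, a female against male shift of 2 on this log2 scale was recovered at 108 of 200 sites, with 3 false calls. Smaller shifts were not tried. Figures were drawn with matplotlib 3.10.9.

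The members, lists and tests were chosen with earlier results of these data known. Genes were named by rule: all Plagl1 rows, the comparison windows, the 2 largest diet differences of each list and the 3 most alike windows. Other names were chosen after their values were seen. Replicate numbers in the labels were not taken as pairs in the main tests. Deviations from the group means of same-numbered females and males correlated at -0.0747 to 0.00505 over sites in the 5 pairs. This cannot tell whether same-numbered mice shared a litter. With 2 RD males, the deviations of these males mirror each other.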

Additional observations from a re-analysis of the deposited data

Results flagged for a closer look

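By Dixon's criterion at 95%, which compares the distance of an extreme mouse from its neighbour with the spread of its group, 59 sets of values were screened and 2 held such a mouse, where chance gives about 2.95. HFD male 3 had a core level of 44.3%, while the 5 other HFD mice had 51.8 to 55.0%. RD male 2 had a gap of 34.0 points between the plus and the minus strand, while the 5 other RD mice had 5.51 to 13.02 points. The cause of either value was not tested.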

How the results depend on the processing

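The diet difference of the core was -13.5 to -16.4 points when 1 mouse was left out and -12.1 to -17.6 points under the other alternatives. Its sign is no sign of stability, since the core was chosen on this contrast and its diets do not overlap. The female against male difference had exact permutation p-values of 0.180 to 0.860 over 19 alternatives, ran from 0.503 to 4.71 points when 1 mouse was left out, and turned to -2.08 points on the plus strand alone. With the replicate block, 5 pairs gave 4.01 points (exact sign-flip permutation p = 0.312, where 0.0625 is the smallest possible), and limma with the block again called 0 of 13 sites. The difference of the diet effects between the sexes turned to -1.90 points with the median over sites and to -3.71 points on the minus strand alone. Leaving out 1 mouse moved it from -2.94 to 5.47 points, and it was -1.72 points without HFD male 3, -0.566 without RD female 4 and -2.94 without RD male 1, with exact permutation p-values of 0.220 to 0.95 over all alternatives. The core below Peg10 missed the threshold when incomplete sites of its window were allowed (-3.81 points, exact permutation p = 0.0532), on the log2 ratio scale (-0.208) and with equal strand weights (-2.25 points). It lay at -2.40 to -4.46 points when 1 mouse was left out, with exact permutation p-values of 0.00879 to 0.0947. The cause was not tested. The difference from Zrsr1 passed under all 17 alternatives, and the median over sites moved those from Zrsr1 and Peg10 to -12.4 and -11.7 points. None of the 17 used a single strand, and the plus-strand mean of 69.4% lay above the Zrsr1 mean of 66.5%. The gap between the strands was 15.3 to 17.9 points when 1 mouse was left out, and no p-value is read from it, since the gap prompted the test.

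No Plagl1 site was called for diet, sex or their interaction under any alternative run. Over all sites, 16 were called for diet, against 78 on untransformed rates, 39 without a limit on the mean rate, 54 at 20 to 80%, 31 with trend and robust variances, 27 without the sex term, 1 with missing values allowed and 0 to 22 without 1 mouse. The interaction had 35 calls without the limit, against 0. Windows of 500 bp on each side gave 3 calls for diet against 5, without Zrsr1 (limma adjusted p = 0.227), and leaving out 1 mouse gave 1 to 6. The window of 1000 bp around the core held no further row, so a wider core gave no other value, and a coverage minimum was not run, since the table gives no coverage. Strand alternatives were chosen after seeing the data.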
